A study of Mus musculus with 12 samples.

Results

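The 38 genes described here belong to the programme of G2 and mitosis, most of them with transcripts known to peak there, and they were measured in cultured mouse osteoclasts. The members were chosen by symbol and not by a threshold on their values, but with earlier results of these data known. Counts set against all genes below carry that limit. Each member was found on 1 row of the 55806 genes of the deposited table. The samples were osteoclasts, the bone-resorbing cells that form by fusion of monocytes, grown for 4 days with M-CSF and RANKL from marrow monocytes of mice 8 to 12 weeks old. The 12 RNA-seq libraries fell into 4 groups of 3, namely male Per1 knockout, male control, female Per1 knockout and female control. Per1 encodes a clock repressor, and the study asked about its part in osteoclast formation and in the activity of inflammatory genes. The names of the libraries mark a conditional allele. Neither a strain, the driver of the deletion nor the deleted part is stated in the labels. Replicate numbers 1 to 3 go with a batch of the same number in every group. The labels call the replicates biological without tying them to animals, and p-values here rest on the spread between these libraries, part of which may be technical.

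A dividing cell copies its DNA in S phase, prepares in G2, and separates its chromosomes in mitosis. The genes for this last stretch are transcribed together late in the cycle. In textbook accounts they are held down in resting cells by the DREAM complex and switched on by MuvB with the factors B-Myb, the product of Mybl2, and Foxm1. The MuvB complexes bind a promoter element called the CHR (cell cycle genes homology region), often close to CCAAT boxes bound by NF-Y. Proteins of the list assemble the spindle, attach it to chromosomes, delay anaphase until all are attached, and cut the cell apart. Osteoclast precursors divide before they fuse, and mature multinucleated osteoclasts no longer divide.

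Libraries held 15366600 to 24346288 fragments, of which 44853 to 89169, or 0.262% to 0.421%, lay on the 38 genes. Libraries of 1 group differed from each other by more than counting noise, so none was taken for a repeat deposit of another, which does not show that they came from separate animals. Per1 itself was at 2.36, 2.66 and 2.99 FPKM (fragments per kilobase of gene, scaled to library depth) in male libraries labelled knockout and at 3.70, 3.63 and 2.69 in male controls. In females it was at 4.04, 3.83 and 2.82 FPKM in libraries labelled knockout and at 2.46, 3.33 and 3.03 in controls. Its groups overlapped in both sexes, so the loss named by the genotype label was not seen in these values and could not be checked with them. Every direction below, and the word knockout, therefore refers to the libraries labelled knockout. A value summed over all exons of a gene would miss the loss of a short stretch. All 10 osteoclast markers were detected, with Ctsk, the collagen-degrading protease, reaching 8117 FPKM. Monocyte and macrophage markers were abundant too, led by Lyz2 at up to 9801 FPKM, and bulk RNA cannot tell fewer cells of a type from less RNA per cell. Libraries stood apart in 2 ways. Female knockout 1, female knockout 2 and female control 2 held 859, 1116 and 996 FPKM summed over 12 interferon response genes, against 100.1 to 305 in the other 9. The share of fragments on rRNA genes was 0.437% to 0.527% in male knockout 1, male control 3, female control 1 and female control 3, against 1.16% to 1.48% in the other 8.

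All 38 genes were expressed in all 12 libraries, and all passed the filter for testing of 1 FPKM or more in at least 3 libraries. The lowest single value was 3.30 FPKM, of the checkpoint kinase gene Ttk, and the highest 58.9 FPKM, of Top2a, the topoisomerase that untangles replicated DNA. Single values rested on 295 to 11007 fragments, where 3 fragments on a gene of 1 kb would give 0.119 to 0.188 FPKM, a floor that covers counting error only. Means over the 12 libraries ran from 4.06 to 45.6 FPKM with a median of 15.5, and the median member lay above 73.6% of the 12237 genes tested. Within a gene the highest library exceeded the lowest by 1.18 to 2.14 times, with a median of 1.59. Top2a led the order of mean FPKM, followed by Ccnb2, Mki67, Cdc20, Ube2c, Bub1b, Ccna2 and Ccnb1, and Ttk stood last behind Ndc80, Cenpf and Nuf2. Neighbours in this order were closer than the spread of their libraries, as in Mki67 at 25.2 to 53.7 FPKM and Ccnb2 at 33.6 to 52.2.

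The promoters of the members were read from the RefSeq promoter table of build GRCm38.p6, which gives 250 bases before and 50 after the start of a gene. Of the 38 genes 32 had such a window, and Aurkb, Ccna2, Foxm1, Incenp, Kif20a and Tpx2 did not. The letters searched, on both strands, were TTTGAA or TTCGAA for the CHR, CCAAT for the CCAAT box, and TTCCCGC or TTTGGCG for E2F-type sites, and none of these contains another (TTCGAA reads the same on both strands). The stretch from 120 bases before to 20 after the start is shown for 8 genes, 5' to 3' on the gene's own strand, with each match in capitals (a match on the other strand appears as its reverse complement). Cdc20, Ube2c, Ccnb2, Cdk1, Ttk and Bub1 hold both CHR and CCAAT letters in this stretch. Of the letters searched, Ccnb1 holds CCAAT boxes alone, and Mybl2, the gene with the lowest p in males, holds none. Other spellings of these elements were not searched, so a missing match does not show that an element is absent.
Cdc20: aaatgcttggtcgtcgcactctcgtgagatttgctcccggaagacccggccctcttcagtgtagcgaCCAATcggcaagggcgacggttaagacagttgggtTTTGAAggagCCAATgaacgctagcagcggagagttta
Ube2c: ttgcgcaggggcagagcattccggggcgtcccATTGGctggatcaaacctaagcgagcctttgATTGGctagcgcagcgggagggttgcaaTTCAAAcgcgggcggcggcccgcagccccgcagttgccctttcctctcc
Ccnb2: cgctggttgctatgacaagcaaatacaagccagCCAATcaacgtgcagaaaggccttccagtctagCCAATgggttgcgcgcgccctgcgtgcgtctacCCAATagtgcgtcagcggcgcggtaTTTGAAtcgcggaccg
Cdk1: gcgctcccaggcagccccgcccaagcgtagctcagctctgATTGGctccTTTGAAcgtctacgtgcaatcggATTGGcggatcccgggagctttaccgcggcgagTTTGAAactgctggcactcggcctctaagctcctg
Ttk: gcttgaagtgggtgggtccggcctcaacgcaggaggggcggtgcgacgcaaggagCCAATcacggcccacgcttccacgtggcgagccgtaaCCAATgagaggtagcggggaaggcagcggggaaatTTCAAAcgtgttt
Bub1: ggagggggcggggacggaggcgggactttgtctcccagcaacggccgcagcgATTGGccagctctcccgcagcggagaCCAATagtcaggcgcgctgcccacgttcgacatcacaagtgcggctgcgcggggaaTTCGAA
Ccnb1: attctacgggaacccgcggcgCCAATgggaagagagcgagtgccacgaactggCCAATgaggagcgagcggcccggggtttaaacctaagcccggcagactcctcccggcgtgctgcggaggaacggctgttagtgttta
Mybl2: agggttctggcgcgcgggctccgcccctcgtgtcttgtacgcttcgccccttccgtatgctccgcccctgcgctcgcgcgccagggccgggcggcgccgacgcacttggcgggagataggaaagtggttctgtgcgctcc

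These stretches lie at chr4:118437324-118437463 (minus strand, Cdc20), chr2:164769809-164769948 (plus strand, Ube2c), chr9:70421535-70421674 (minus strand, Ccnb2), chr10:69352893-69353032 (minus strand, Cdk1), chr9:83834569-83834708 (plus strand, Ttk), chr2:127831840-127831979 (minus strand, Bub1), chr13:100786467-100786606 (minus strand, Ccnb1) and chr2:163054515-163054654 (plus strand, Mybl2), all in build GRCm38.p6. In Cdk1, the kinase that drives entry into mitosis, a pair of CCAAT boxes on the reverse strand alternates with a pair of CHR letters. In Ccnb2, its partner cyclin, 3 CCAAT boxes precede a CHR just downstream of the start. Bub1, a kinase of the spindle checkpoint, carries the variant TTCGAA in place of TTTGAA.

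CHR letters were found in 24 of 32 members (75%), against 21.66% of the 27025 genes with a window and 16.86% of such genes tested here. CCAAT was found in 23 of 32 (71.88%), against 41.06% of all genes with a window and 43.15% of those tested. Both together were found in 21 of 32 (65.62%), against 8.614% and 7.061%. E2F-type letters were found in 1 member (3.125%), Melk, against 6.834% and 12.64%. Of 33 CHR matches 23 began between 40 bases before and 45 after the start, and 26 read in the direction of the gene. These positions rest on the RefSeq start, and in 19 of 32 windows the 50 bases after it were also found near the start of a GENCODE M21 transcript of the gene. Of 56 CCAAT matches 54 lay upstream of the start, with a median of 33 bases between neighbours, and 18 of 33 neighbouring pairs were 25 to 40 bases apart. No letters matched in Birc5, Mad2l1, Mybl2, Nuf2 and Nusap1. Among 63 further G2 and mitosis genes 49 had a window, with the CHR in 73.47%, CCAAT in 71.43% and E2F-type letters in 24.49%. Among 40 genes of DNA replication 33 had one, with the CHR in 18.18%, CCAAT in 63.64% and E2F-type letters in 60.61%. These counts describe letters in a window and not bound sites.

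**Figure D1:**
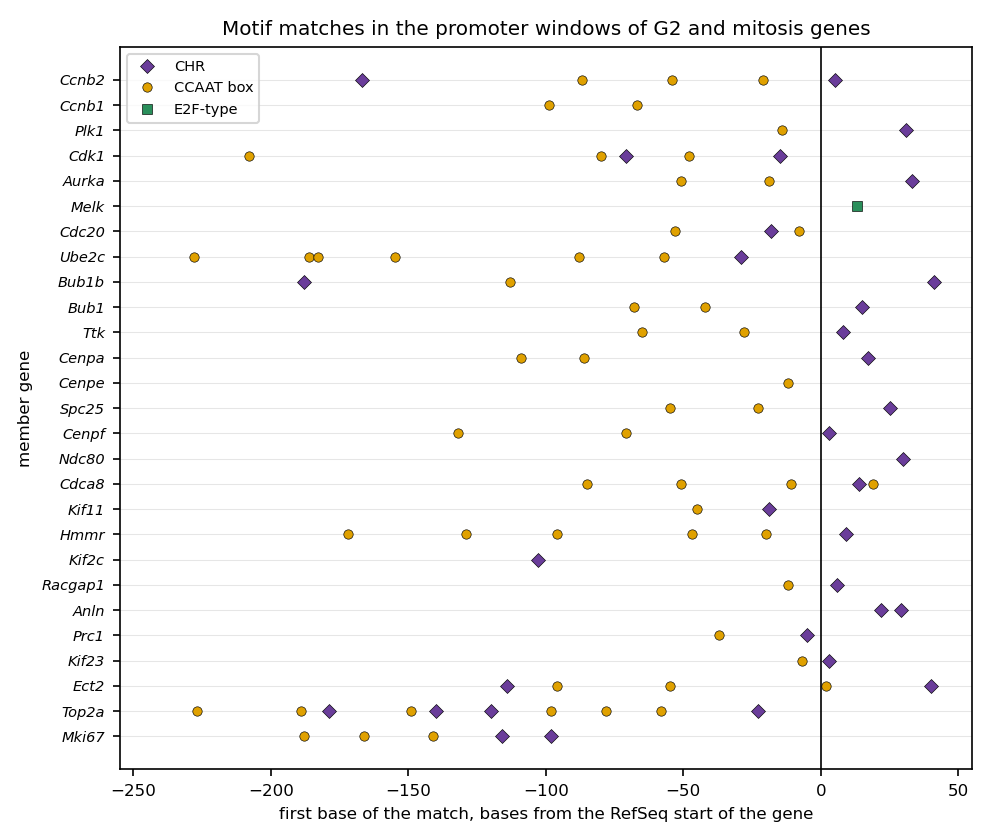
Positions of CHR, CCAAT and E2F-type letters in the RefSeq promoter windows of the 27 members with a match, by gene (rows) and by the first base of the match in bases from the start (horizontal axis). CCAAT boxes lie upstream of the start in 54 of 56 matches, and 23 of 33 CHR matches begin between 40 bases before and 45 after it.

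Summed over the 38 genes, transcript came to 794, 713 and 749 FPKM in male knockout libraries 1, 2 and 3, against 621, 617 and 694 in male controls. The female sums were 571, 516 and 704 FPKM in knockout libraries, against 690, 555 and 715 in controls. Male groups did not overlap and female groups did. The group means were 752 ± 40.4 FPKM in male knockout libraries and 644 ± 43.2 in male controls (SD, n = 3 each). In females they were 597 ± 96.5 FPKM in knockout libraries and 653 ± 86.3 in controls. Male knockout 1 was the highest of the 12 libraries for 23 of 38 genes, and female knockout 2 the lowest for 28. Of the other 10 genes, female knockout 1 was the lowest for 4, female control 2 for 3 and male control 1 for 3. The 3 libraries with the lowest sums were female knockout 2, female control 2 and female knockout 1, and these 3 had the highest interferon transcript. Male knockout 1 belongs to the libraries with a low rRNA share, as do the highest library of the male controls (3) and both higher ones of the female controls (1 and 3). Female knockout 3, at 704 FPKM in sum, had the highest rRNA share of the 12 libraries, 1.48%. The part of interferon transcript and of the rRNA share in these levels was not tested beyond the fits given below.

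**Figure D2:**
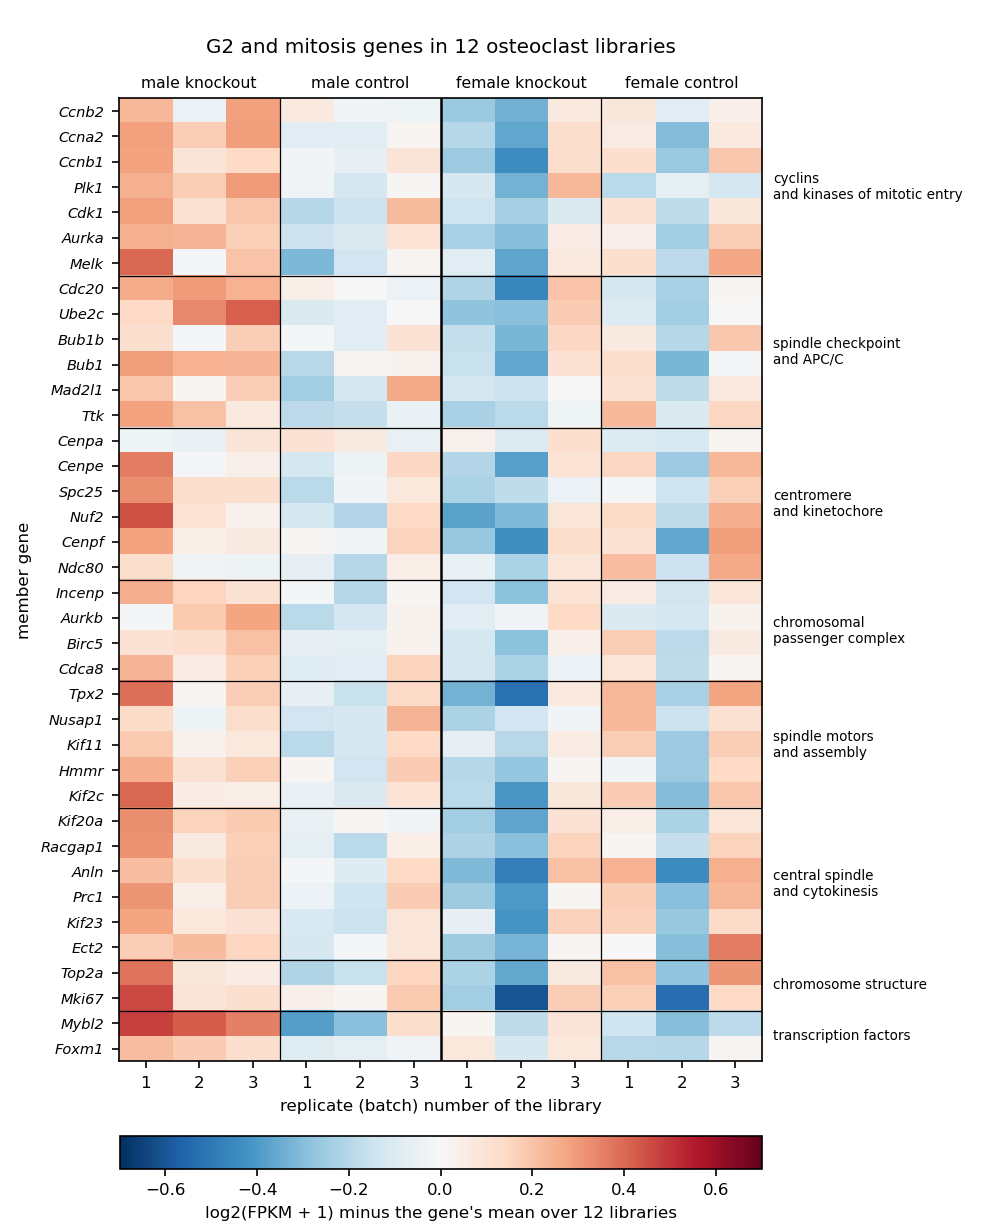
Deviation of log2(FPKM + 1) from the mean of each gene over 12 libraries, for 38 genes (rows, by role) in male knockout, male control, female knockout and female control libraries (columns, numbered by replicate). Red is above and blue below the mean of the gene, and female knockout 2 is the lowest library for 28 genes.

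**Figure D3:**
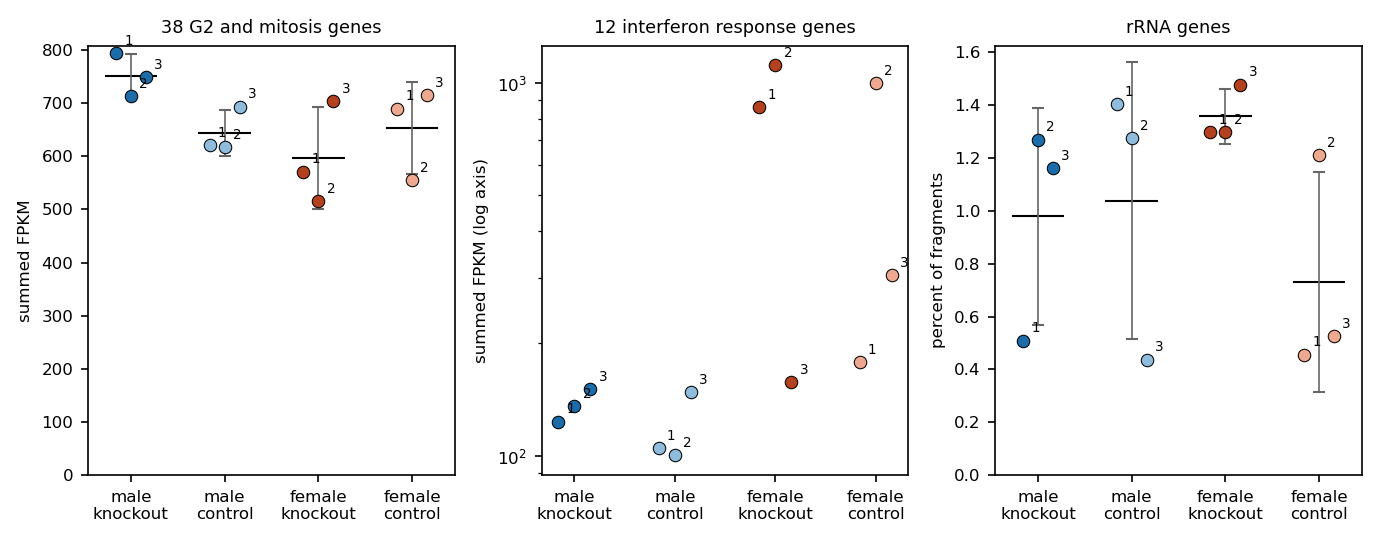
Summed FPKM of the 38 genes (left), summed FPKM of 12 interferon response genes on a log axis (middle) and percent of fragments on rRNA genes (right) by library, with replicate numbers. Bars and whiskers in the left and right panels are the mean and SD of 3 libraries; the male knockout sums of 713 to 794 FPKM lie above the male control sums of 617 to 694.

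In males, 37 of 38 G2 and mitosis genes had a log2 change above 0 in libraries labelled knockout, where 48.8% of all genes tested were above 0. Their median log2 change was 0.21, against -0.005 for all genes. None passed limma at an adjusted p under 0.05 over all 12237 genes, where 1 gene (0.00817%) did, the monocyte receptor gene Cx3cr1. At an unadjusted p under 0.05 by limma 12 of 38 were higher and 0 lower, against 8.09% of all genes higher. In 16 of 38 every male knockout library lay above every male control, against 12.5% of all genes. By limma-voom on fragments rebuilt from FPKM 0 members passed, where 0.0409% of all genes did, and 13 were higher at an unadjusted p under 0.05, against 9.06% of all genes. Within same-numbered batches the knockout library was above its control for 37 of 38 genes in batch 1, 36 in batch 2 and 25 in batch 3, against 49.8%, 48.6% and 49.4% of all genes. The medians of these within-batch log2 differences were 0.36, 0.19 and 0.06. Libraries of the same number were not alike in rRNA share. It was 0.509% in the knockout and 1.404% in the control of batch 1, and 1.27% and 1.275% in batch 2. In batch 3 it was 1.161% in the knockout and 0.4365% in the control. The part of this share in the differences within pairs was not tested. The unadjusted count of 12 fell to 5 without male knockout 1, to 4 without male knockout 3, to 4 without male control 1, to 5 without male control 2 and to 7 without female knockout 1, and it was 6 with upper quartile or quantile rescaling. Over these settings 4.8% to 7.48% of all genes were higher at the same p. The count rose to 17 with only male libraries, against 8.83% of all genes. With a replicate block within sex it rose to 15, against 8.54%. Without male knockout 1 the median log2 change was 0.14.

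Of the 2 transcription factor genes, Mybl2 (ENSMUSG00000017861, chromosome 2, 162896607 to 162926608 plus strand by the table), which encodes the activator B-Myb, had 12.5, 11.97 and 11.4 FPKM in male knockout libraries, against 6.41, 6.91 and 9.56 in male controls. The 3 knockout libraries lay close together and above all controls, of which replicate 3 was the highest. Its log2 change was 0.60 (95% interval 0.33 to 0.87, limma adjusted p = 0.105), the lowest p of the 38 genes and a ratio of means of 1.56. This change passed without male control 3 (log2 change 0.76, limma adjusted p = 0.0225), where 0.523% of all genes were called. With the rRNA share as a covariate it passed too (0.58, limma adjusted p = 0.0419), where 0.49% were called. The same held with library quality weights (0.68, limma adjusted p = 0.00684), where 9.66% were. No other setting called this change. It lay between 0.50 and 0.76 over all settings run. Foxm1 (ENSMUSG00000001517, chromosome 6, 128339930 to 128353109 plus strand by the table), the forkhead activator of the same programme, had 9.86, 9.58 and 9.13 FPKM in male knockout libraries, against 7.81, 7.89 and 8.18 in male controls. Its groups were apart, by a log2 change of 0.23 (limma adjusted p = 0.207).

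Of the 7 cyclin and kinase genes of mitotic entry all had a log2 change above 0, with a median of 0.27, and in 4 the male groups did not overlap. Ccna2, the cyclin of S phase and G2, had 32.3, 29.7 and 32.5 FPKM in male knockout libraries, against 24.8, 24.97 and 26.6 in male controls, without overlap (log2 change 0.30, limma adjusted p = 0.319). Plk1, the polo-like kinase, had 27.5, 25.997 and 28.4 FPKM in male knockout libraries, against 22.5, 21.01 and 23.05 in controls, again without overlap (0.29, limma adjusted p = 0.291). The mitotic cyclins and their kinase were less separated. Ccnb1, cyclin B1, had 30.2, 26.3 and 27.3 FPKM in knockout libraries, against 24.3, 23.7 and 26.3 in controls, where knockout 2 and control 3 nearly touched (0.17). Ccnb2, cyclin B2, had 50.2, 41.4 and 52.2 FPKM in knockout libraries, against 44.7, 42.04 and 41.7 in controls, all of which lay above knockout 2 (0.15). Cdk1 had 24.5, 21.5 and 22.8 FPKM in knockout libraries, against 17.3, 17.95 and 23.4 in controls, with control 3 inside the knockout range (0.23). Means were 21.9 ± 0.674 FPKM in knockout libraries and 18.1 ± 1.75 in controls for Aurka, the spindle pole kinase (SD, n = 3 each). Melk, a kinase of dividing cells, averaged 12.05 ± 1.88 FPKM in knockout libraries and 9.28 ± 1.18 in controls (SD, n = 3 each).

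The spindle checkpoint holds back the anaphase-promoting complex (APC/C) until chromosomes are attached, and all 6 of its genes listed here had a log2 change above 0, with a median of 0.29. Ttk (ENSMUSG00000038379, chromosome 9, 83716742 to 83754442 plus strand by the table), the kinase that starts the checkpoint signal, had 5.12, 4.79 and 4.27 FPKM in male knockout libraries, against 3.43, 3.496 and 3.86 in male controls. All 3 knockout libraries were above all controls (log2 change 0.32, 95% interval 0.10 to 0.53, limma adjusted p = 0.182). Bub1 had 24.02, 23.2 and 23.1 FPKM in knockout libraries, against 16.9, 19.7 and 19.8 in controls, without overlap (0.31, limma adjusted p = 0.314). Ube2c, the ubiquitin-conjugating enzyme that works with the APC/C, had 35.9, 41.3 and 43.9 FPKM in knockout libraries, against 30.2, 30.9 and 32.6 in controls. It was apart too, by a log2 change of 0.36 (limma adjusted p = 0.233). Cdc20, the activator of the APC/C in mitosis, averaged 44.4 ± 0.9504 FPKM in knockout libraries and 36.7 ± 1.13 in controls (SD, n = 3 each), a log2 change of 0.27. Its male groups did not overlap, while those of the checkpoint genes Bub1b and Mad2l1 did (0.09 and 0.16).

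Centromere and kinetochore genes showed the smallest male median of the 8 roles, 0.11 over 6 genes. Cenpa, the histone variant that marks centromeres, was the 1 gene of 38 below 0, at 15.8 ± 0.883 FPKM in knockout libraries and 16.1 ± 0.96001 in controls (SD, n = 3 each, log2 change -0.03). Spc25, of the NDC80 complex that grips microtubules, had 12.5, 10.8 and 10.7 FPKM in male knockout libraries, against 8.49, 9.65 and 10.4 in controls (0.23, limma adjusted p = 0.322). Its groups were apart by a narrow gap. Nuf2, of the same complex, had 7.71, 5.84 and 5.52 FPKM in knockout libraries, against 4.88, 4.55 and 6.06 in controls, with overlap (0.25). Ndc80, Cenpe and Cenpf had log2 changes of 0.09, 0.14 and 0.08.

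The chromosomal passenger complex, which corrects attachments and guides cytokinesis, had 4 of 4 genes above 0 with a median of 0.20. Aurkb (ENSMUSG00000020897, chromosome 11, 68936473 to 68942490 plus strand by the table), its kinase, had 17.96, 20.7 and 22.1 FPKM in male knockout libraries, against 15.8, 16.5 and 18.4 in male controls. Knockout replicate 1 lay within the control range, and the log2 change was 0.24 (limma adjusted p = 0.261). Aurkb ends 43.55 kb before the start of Per1 on chromosome 11 in the deposited coordinates. Its partners Incenp, Birc5 and Cdca8, of which the male groups of Incenp and Birc5 did not overlap, had log2 changes of 0.23, 0.17 and 0.16.

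Spindle assembly genes had 5 of 5 above 0 with a median of 0.16, and cytokinesis genes 6 of 6 with a median of 0.20. Tpx2, a spindle assembly factor that activates Aurora A, had 24.6, 18.8 and 21.003 FPKM in male knockout libraries, against 17.8, 16.5 and 20.5 in controls. Nusap1, which bundles spindle microtubules, had 18.5, 16.4 and 18.4 FPKM in knockout libraries, against 15.2, 15.5 and 20.1 in controls. Prc1, the central spindle bundler, had 10.6, 8.66 and 9.52 FPKM in knockout libraries, against 8.08, 7.498 and 9.57 in controls. All of these overlapped, with log2 changes of 0.22, 0.07 and 0.18. The motor and assembly genes Kif11, Kif2c and Hmmr had log2 changes of 0.15, 0.18 and 0.16. For the cytokinesis genes Kif20a, Kif23, Racgap1, Ect2 and Anln the log2 changes were 0.24, 0.21, 0.25, 0.19 and 0.16. Kif20a, a motor of the central spindle, and Racgap1 and Ect2, which steer the small GTPase RhoA there, had male groups that did not overlap.

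Top2a and Mki67 overlapped between the male groups. Top2a had 58.9, 47.5 and 46.6 FPKM in knockout libraries, against 38.7, 40.4 and 50.04 in controls (log2 change 0.24). Mki67, which coats mitotic chromosomes and encodes the proliferation marker Ki-67, had 53.7, 41.2 and 41.9 FPKM in knockout libraries, against 39.7, 39.1 and 44.03 in controls (0.14, 95% interval -0.34 to 0.62). In both genes knockout 1 was the highest male library and control 3 was above knockout 2 and 3.

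**Figure D4:**
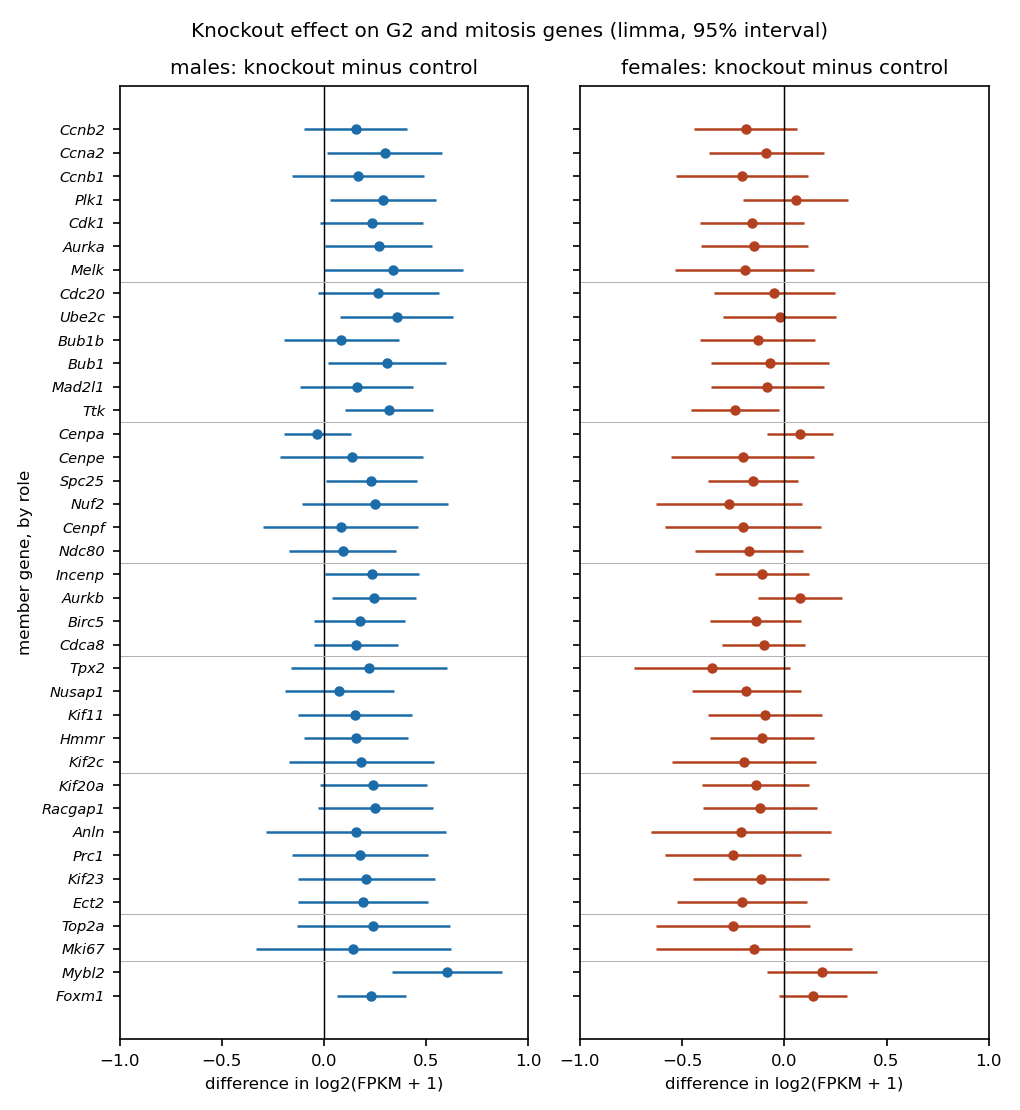
Difference in log2(FPKM + 1), libraries labelled knockout minus controls, for 38 genes in males (left) and females (right), as points with 95% intervals from limma, grouped by role. Estimates are above 0 for 37 genes in males and below 0 for 33 in females, and most intervals include 0.

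In females, 33 of 38 genes had a log2 change below 0, against 52.1% of all genes, with a median of -0.14. None passed limma over all genes, where 0 of 12237 (0%) did, and by limma-voom 0 passed as well. At an unadjusted p under 0.05 by limma 1 of 38 was lower and 0 higher, against 6.09% of all genes lower. In 0 of 38 were the female groups apart in either direction, against 13.2% of all genes. Within batches the knockout library was above its control for 5 of 38 genes in batch 1, 7 in batch 2 and 15 in batch 3, against 48.8%, 46.5% and 46.2% of all genes. The within-batch medians were -0.25, -0.07 and -0.06. Fitted with a replicate block within sex, 5 genes were lower at an unadjusted p under 0.05 by limma, against 7.71% of all genes, and with the block over both sexes 3 were, against 5.91%.

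The female median moved with the libraries and covariates in the fit. It was -0.06 without female knockout 2 or without female control 3, -0.25 without female knockout 3 and -0.24 without female control 2. Without the 3 libraries of high interferon transcript it was -0.05, with 16 of 38 genes above 0, a fit in which female knockout 3 is the lone knockout beside 2 controls and takes its spread from the other groups. With the rRNA share as a covariate it was 0.01, with 21 genes above 0. With only the 8 libraries of higher rRNA share, where female control 2 stood alone, it was 0.09, with 32 above 0. The count of 1 lower gene was 11 without female knockout 3, where 10.9% of all genes were lower, 15 without female control 2, where 13.3% were, and 0 without any 1 of female knockout 1, female knockout 2, female control 1 and female control 3.

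Ttk, the gene of lowest p in females, had 3.296, 3.41 and 3.92 FPKM in female knockout libraries, against 4.89, 3.68 and 4.56 in female controls. Female knockout 3 lay above female control 2, and the log2 change was -0.24 (95% interval -0.45 to -0.03, limma adjusted p = 0.412). Tpx2 had 14.6, 12.6 and 19.5 FPKM in female knockout libraries, against 21.96, 15.7 and 22.7 in controls (-0.36, limma adjusted p = 0.453). The estimates of both transcription factor genes were above 0. Foxm1 had 8.83, 7.65 and 8.83 FPKM in female knockout libraries, against 7.15, 7.13 and 8.45 in controls (0.14, limma adjusted p = 0.485). Mybl2 had 8.78, 7.55 and 9.33 FPKM in female knockout libraries, against 7.79, 6.89 and 7.52 in controls (0.18, limma adjusted p = 0.5495). Only their lowest knockout library lay within the range of the controls.

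Among cyclins, kinases and checkpoint genes the female groups overlapped throughout. Ccnb2 had 35.4, 33.6 and 44.8 FPKM in female knockout libraries, against 45.1, 40.4 and 43.8 in controls (log2 change -0.19). Ccna2 had 22.8, 20.2 and 28.8 FPKM in knockout libraries, against 27.4, 21.2 and 27.6 in controls. Ccnb1 had 20.6, 17.9 and 26.97 FPKM in knockout libraries, against 26.8, 20.5 and 28.3 in controls. Both cyclins were lowest in knockout 2 among the knockouts and in control 2 among the controls. Cdk1 had 18.02, 16.8 and 18.5 FPKM in knockout libraries, against 21.5, 17.5 and 21.1 in controls. Plk1 had 21.2, 18.03 and 27.1 FPKM in knockout libraries, against 20.01, 21.96 and 20.96 in controls. Bub1 had 17.4, 14.9 and 20.9 FPKM in knockout libraries, against 21.2, 15.4 and 19.3 in controls. Ube2c had 26.6, 26.4 and 36.9 FPKM in knockout libraries, against 30.5, 27.4 and 32.6 in controls. The log2 changes of these 6 genes ran from -0.21 for Ccnb1 to 0.05 for Plk1, the 1 gene of mitotic entry above 0 in females.

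Kinetochore and spindle genes had female medians of -0.19 each. Nuf2 had 3.94, 4.16 and 5.78 FPKM in female knockout libraries, against 6.03, 4.65 and 6.63 in controls (log2 change -0.27). Spc25 had 8.26, 8.55 and 9.52 FPKM in knockout libraries, against 9.76, 8.798 and 11.1 in controls (-0.15). Nusap1 had 14.3, 15.2 and 16.6 FPKM in knockout libraries, against 19.8, 15.1 and 18.2 in controls (-0.19). Prc1 had 6.86, 6.08 and 8.402 FPKM in knockout libraries, against 9.51, 6.64 and 9.98 in controls (-0.25). In each of these the highest knockout library was replicate 3, above control 2. Aurkb was at 17.1, 17.8 and 20.1 FPKM in knockout libraries, against 16.8, 16.5 and 18.5 in controls (0.08). Top2a had 38.4, 34.8 and 47.001 FPKM in knockout libraries, against 51.97, 36.9 and 55.9 in controls. Mki67 had 32.5, 25.2 and 43.7 FPKM in knockout libraries, against 43.6, 26.4 and 42.8 in controls. For Mki67 the spread within each group was larger than the gap between them, with knockout 2 and control 2 side by side at the bottom. The other 20 genes ranged in log2 change from -0.21 to 0.08 in females, with Cenpa (0.08) alone above 0.

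The knockout effect in females minus that in males was below 0 for 37 of 38 genes, against 50.9% of all genes, with a median of -0.36. None passed limma for this difference over all genes, where 0 of 12237 (0%) did. At an unadjusted p under 0.05 by limma 11 of 38 were below 0 and 0 above, against 9.47% of all genes below, and voom gave 8, against 7.3% of all genes, and called 0. Ttk had the lowest p, with a difference of -0.56 (95% interval -0.86 to -0.25, limma adjusted p = 0.192), followed by Spc25 at -0.38 (limma adjusted p = 0.237). Tpx2 had the difference farthest from 0, -0.57, and Foxm1 the nearest, -0.09 (95% interval -0.33 to 0.14). In 33 of 38 genes the estimate was above 0 in males and below 0 in females, a pattern of 29.8% of all genes. The count of 11 became 26 with a replicate block within sex, against 10.6% of all genes, and 21 with the block over both sexes, against 9.8%, and 0 passed in either. It was 5 with quantile normalization (8.76% of all genes), 2 with upper quartile rescaling (5.61%), 2 without the 3 libraries of high interferon transcript (6.71%), 1 with the rRNA share as a covariate (5.1%) and 3 with only the 8 libraries of higher rRNA share (4.06%). Leaving out 1 library, it ran from 1 without female control 3 (5.81% of all genes) to 30 without female control 2 (15.1%), with 25 without female knockout 3 (13.1%), 7 without male knockout 2 (7.84%), 15 without male control 3 (11.3%) and 2 to 6 without any of the other libraries (6.13% to 9.14%). The median was -0.20 with the rRNA share as a covariate and -0.15 with only the 8 libraries of higher share.

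Averaged over both sexes the knockout effect was above 0 in 23 of 38 genes, against 48.9% of all genes, with a median of 0.03. This direction turned on single libraries: the median was -0.0165 with 15 genes above 0 without female control 2 and -0.00996 with 16 above 0 without female knockout 3, while 35 were above 0 without female knockout 2. The number above 0 was also 35 without the 3 libraries of high interferon transcript, and it was 37 with the rRNA share as a covariate (median 0.10) and 38 with only the 8 libraries of higher rRNA share (median 0.15). None passed limma, where 1 gene of 12237 (0.00817%) did, again Cx3cr1. At an unadjusted p under 0.05 by limma 3 of 38 were higher and 0 lower, against 4.98% of all genes higher, and voom gave 4, against 7.33% of all genes, and called 0 members. The 3 were Mybl2 (log2 change 0.39, limma adjusted p = 0.237), Foxm1 (0.19, limma adjusted p = 0.303) and Aurkb (0.16, limma adjusted p = 0.452). Both transcription factor genes were above 0 in each sex. The number of genes higher at an unadjusted p was 9 without the 3 libraries of high interferon transcript (5.08% of all genes), 6 without female knockout 2 (5.03%) and 6 with only the 8 libraries of higher rRNA share (5.87%). It was 5 with a replicate block over both sexes (5.02% of all genes) and 5 with the rRNA share as a covariate (7.17%).

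Other cell cycle genes were read from lists chosen alongside the members. In males, 62 of 63 further G2 and mitosis genes were above 0 with a median log2 change of 0.19, and 16 were higher at an unadjusted p under 0.05 by limma, against 8.09% of all genes. In females 18 of the 63 were above 0, with a median of -0.07. The lead in males was held by Cdca2, Cks2, Cks1b and Spc24, at log2 changes of 0.25, 0.34, 0.27 and 0.24 (limma adjusted p = 0.152, 0.152, 0.153 and 0.181). Cks2, a small subunit bound by cyclin-dependent kinases, had 62.4, 61.5 and 58.9 FPKM in male knockout libraries, against 43.4, 45.5 and 55.5 in controls. In females Cit and Ckap2 had the lowest p, at log2 changes of 0.25 and -0.34 (limma adjusted p = 0.401 and 0.409).

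DNA replication genes had 40 of 40 log2 changes above 0 in males, with a median of 0.29 and 26 higher at an unadjusted p under 0.05 by limma, against 8.09% of all genes. In females 15 of 40 were above 0 with a median of -0.05, and 2 (5%) were higher at that p, against 5.27% of all genes. The helicase gene Mcm2 was at 14.3, 14.9 and 13.7 FPKM in male knockout libraries, against 9.78, 9.62 and 11.6 in male controls (log2 change 0.43, limma adjusted p = 0.105). Orc1, Cdc6 and Mcm5, which license or unwind origins, had log2 changes of 0.45, 0.44 and 0.41 (limma adjusted p = 0.105, 0.105 and 0.114). In females E2f1 and Pold1 had the lowest p, each at 0.16 (limma adjusted p = 0.401 and 0.427). Summed over the 40 genes, replication transcript was at 710, 692 and 685 FPKM in male knockout libraries, against 505, 520 and 639 in male controls. In females it was at 611, 579 and 587 FPKM in knockout libraries, against 606, 589 and 630 in controls, a narrower range than that of the mitotic sum.

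Of 23 regulators of cell cycle transcription 17 were above 0 in males, with a median of 0.12, and 8 in females, with a median of -0.01. Myc was at 31.5, 34.8 and 33.3 FPKM in male knockout libraries, against 23.5, 24.1 and 26.8 in controls (log2 change 0.41, limma adjusted p = 0.105). The pocket protein genes Rb1 and Rbl2, repressors of E2F targets, were below 0 in males, at -0.22 and -0.18 (limma adjusted p = 0.159 and 0.147). They were the 2 of 23 regulators with every male knockout library below every control, no larger a share than the 1338 of 12237 genes tested. In 6 of the 23 every male knockout library lay above every control, against 12.5% of all genes. E2f3 was at 0.29 in males (limma adjusted p = 0.207). E2f6 had a log2 change of -0.26 in females (limma adjusted p = 0.417). Of 14 CDK inhibitor and growth arrest genes tested 4 were above 0 in males, with a median of -0.12, and 9 in females, with a median of 0.05. Cdkn1b, the inhibitor p27, was at 13.3, 13.8 and 14.8 FPKM in male knockout libraries, against 16.9, 18.9 and 17.6 in controls (log2 change -0.33, limma adjusted p = 0.116). Trp53, Ccng2 and Btg2 had log2 changes of 0.33, -0.43 and -0.60 in males (limma adjusted p = 0.116, 0.127 and 0.255), and Ccng1 and Btg2 had -0.16 and 0.34 in females (limma adjusted p = 0.463 and 0.544). Of 15 genes of APC/C subunits and its other activator 10 were above 0 in males and 3 in females, with medians of 0.08 and -0.05. Anapc13, Cdc23, Anapc5 and Cdc16 led them in males (-0.22, 0.25, 0.15 and 0.13, limma adjusted p = 0.152, 0.212, 0.318 and 0.348), and Anapc13 and Cdc26 in females (-0.15 and 0.10, limma adjusted p = 0.418 and 0.621). Of 5 genes of G1 cyclins and kinases tested 4 were above 0 in each sex. Ccnd1, cyclin D1, was at 15.96, 18.3 and 15.99 FPKM in male knockout libraries, against 8.06, 9.66 and 11.5 in controls (log2 change 0.73, limma adjusted p = 0.146), and its female log2 change was 0.28. Cdk4, Cdk6 and Ccnd3 had log2 changes of 0.24, 0.21 and -0.10 in males (limma adjusted p = 0.226, 0.384 and 0.771), and Ccnd3 had 0.21 in females. Of the genes in these 6 lists 0 passed limma over all genes in any comparison.

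**Figure D5:**
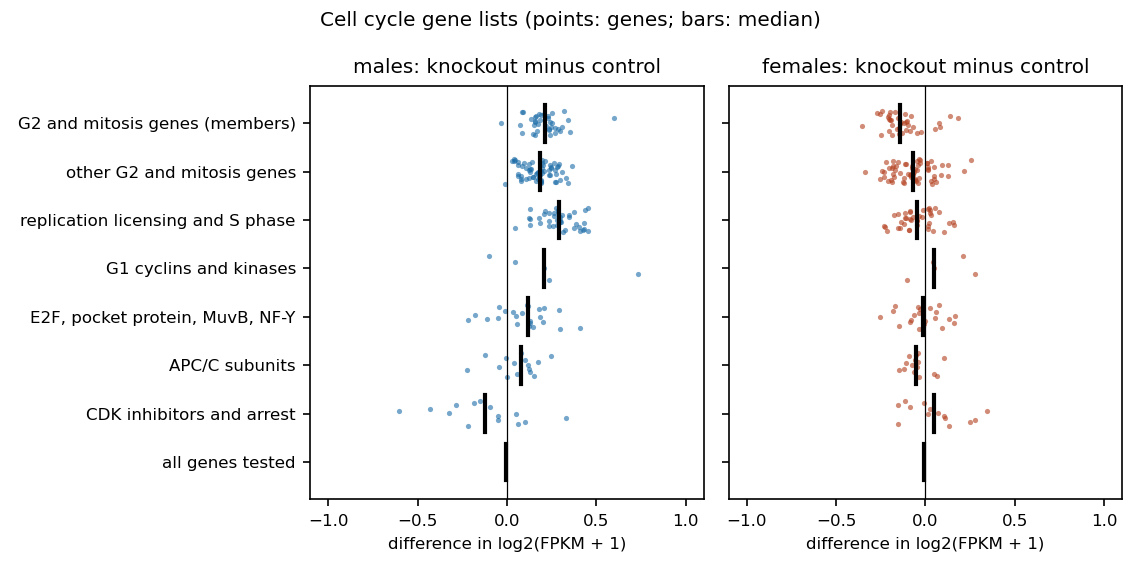
Differences in log2(FPKM + 1), libraries labelled knockout minus controls, of the members and of 6 other cell cycle lists in males (left) and females (right). Points are genes and bars are medians, which in males are 0.21 for the members, 0.29 for replication genes and -0.12 for CDK inhibitors and arrest genes.

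Markers of cell types were read beside these values. Of 10 monocyte and macrophage markers 0 were above 0 in males, with a median log2 change of -0.44, and their summed level was 4069 to 5545 FPKM in male knockout libraries and 5411 to 7787 in male controls. Cx3cr1 had 4.19, 6.39 and 7.77 FPKM in male knockout libraries, against 23.3, 24.0 and 21.9 in controls (log2 change -1.79, limma adjusted p = 0.00856). Ccr2, Mrc1 and Csf1r had log2 changes of -0.92, -0.56 and -0.29 in males (limma adjusted p = 0.131, 0.152 and 0.216). In females 7 of the 10 were above 0, with a median of 0.07, and sums were 6420 to 10730 FPKM in knockout libraries and 6942 to 10339 in controls. Cx3cr1 had 11.3, 13.4 and 9.93 FPKM in female knockout libraries, against 22.3, 29.2 and 24.6 in controls (log2 change -1.07, limma adjusted p = 0.147), and Mrc1 a log2 change of -0.28. Osteoclast markers were above 0 in 3 of 10 genes in males, with sums of 12174 to 13959 FPKM in knockout libraries and 12106 to 17711 in controls. In females 0 of 10 were above 0, with a median of -0.25 and sums of 9860 to 12583 FPKM in knockout libraries and 11950 to 14693 in controls. Ctsk and Atp6v0d2, a proton pump subunit, had log2 changes of -0.42 and -0.47 there (limma adjusted p = 0.418 and 0.392), and Mmp9, Acp5, Nfatc1 and Itgb3 had -0.23, -0.18, 0.14 and -0.10 in males (limma adjusted p = 0.528 to 0.686).

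Markers of neutrophils and of their precursors, which divide in the bone marrow, summed to 1490 to 2096 FPKM in male knockout libraries and 1428 to 2821 in male controls. In females they summed to 1493 to 2924 FPKM in knockout libraries and 1709 to 2703 in controls. In males 4 of 10 were above 0, with a median of -0.09, and in females 4 of 10, with a median of -0.03. Erythroid markers summed to 1.33 to 3.98 FPKM in male knockout libraries and 1.66 to 5.04 in male controls, with 2.54 to 7.38 in female knockout libraries and 1.87 to 3.29 in female controls. Markers of B and T cells summed to 9.18 to 13.4 FPKM in male knockout libraries and 12.4 to 24.5 in male controls, with 14.0 to 36.3 in female knockout libraries and 13.5 to 26.9 in female controls. Stem and progenitor markers stayed between 3.70 and 6.38 FPKM in sum in any library. Mast cell markers lay between 1.76 and 8.74 FPKM, with Tpsb2 at 0 in every library, and stromal and endothelial ones between 2.42 and 10.7. The part of any of these cell types in the levels of the G2 and mitosis genes was not tested.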

How the data were processed

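RNA-seq was done on 12 libraries in 4 groups of 3. Per the file headers, the authors deposited FPKM per gene, and the submitters' processing notes list featureCounts 1.5.0-p3, HISAT2 2.0.5 and the build mm10 without roles or parameters. They do not say if reads were counted by strand. Deposited coordinates of 1 of 38 members equalled those of GENCODE M21 on GRCm38, so the build behind the printed gene coordinates is uncertain. They do not line up with the promoter stretches, which are in GRCm38.p6. Ttk, on the plus strand, is deposited at 83716742 to 83754442, and its promoter stretch lies at 83834569 to 83834708.

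The 38 members, the gene lists and the tests were chosen with earlier results of these data known, and the interferon list was added after seeing the data. Genes with 1 FPKM or more in at least 3 libraries (12237) were fitted with limma 3.58.1 in R 4.3.3 on log2(FPKM + 1), with 4 group means over all 12 libraries and a variance trend. Tests were two-sided, with p-values adjusted over all genes tested by the Benjamini-Hochberg method and calls made at 0.05. This scale understates changes of low genes. Knockout was set against control for each sex, for their average, and for the difference (female minus male effect). FPKM times gene length gave whole multiples of 1 step in 100% of values within 0.01, so fragments were rebuilt for a voom fit. The method was tested on simulated data, with changes larger than that of any member and noise drawn independently for each gene. That test does not cover small changes shared by many genes.

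Per-library values are given for 8 preset genes and for the 8 of lowest p in males and in females, and from other lists up to 4 genes are named in males and 2 in females, most by log2 change alone. Libraries of the same number share a batch by their labels, which pairs them, and a replicate block was run as an alternative. Other alternatives changed the pseudocount, filter, scaling, variance model, library weights and libraries used. A fit to only the 8 libraries of higher rRNA share was added after seeing the data.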

Additional observations from a re-analysis of the deposited data

How the results depend on the processing

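Direction and the absence of a call both held in 910 of 941 comparisons of a named gene with an alternative setting. Some of these settings could not move a log2 change, such as another variance model or, within 1 sex, leaving out a library of the other. The count is therefore no measure of how firm the directions are. With library quality weights limma called 7 members higher in males, 1 higher and 26 lower in females, 3 higher in the average and 31 below 0 in the difference. These weights gave female knockout 1 a weight of 9.11 against 0.286 to 3.18 for the others, their fit stopped before it converged, and it called 9.66% of all genes in males, 40% in females, 16.9% in the average and 31.9% in the difference. With the rRNA share as a covariate 1 member was called higher in males (0.49% of all genes were called), and the medians were 0.0129 in females and -0.20 for the difference. With only the 8 libraries of higher rRNA share they were 0.0865 and -0.15. In females the number of members above 0, 5 of 38, became 16 without the 3 libraries of high interferon transcript, 21 with the rRNA covariate and 32 in the 8 libraries. Among the 8 genes of lowest p, Ccnb2 turned to 0.0115 without the 3 interferon libraries, Nusap1 to 0.0160 with the rRNA covariate and 0.0248 in the 8 libraries, and Prc1 to 0.0761 in the 8 libraries. Leaving out 1 library in turn, the male median ran from 0.14 to 0.26, the female one from -0.25 to -0.06, and 0 to 1 members were called higher in males, the 1 without male control 3, where 0.523% of all genes were called. A replicate block, which pairs libraries of 1 batch, called 0 members in any comparison, and its counts at an unadjusted p were 15 in males within sex (8.54% of all genes) and 14 over both sexes (8.31%). The cause of these shifts was not tested. With 3 libraries a group and 1 estimate of spread, the 95% intervals of most male changes include 0. That estimate is shared by both sexes, so the male intervals also carry the spread of the female libraries. The SD of the summed FPKM was 96.5 in female knockout libraries and 86.3 in female controls. In males it was 40.4 in knockout libraries and 43.2 in controls.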

Other observations

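The balance between mitotic and replication transcript differed between libraries. The summed FPKM of the 38 G2 and mitosis genes over that of the 40 replication genes was 1.12, 1.03 and 1.09 in male knockout libraries, against 1.23, 1.19 and 1.09 in male controls. It was 0.935, 0.891 and 1.198 in female knockout libraries, against 1.14, 0.942 and 1.14 in female controls. The 3 values under 1 belong to female knockout 1, female knockout 2 and female control 2, the libraries with the most interferon response transcript. Replication sums were 611, 579 and 589 FPKM in these, against 587 in female knockout 3 and 606 and 630 in female control 1 and 3.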
